A study of Mus musculus with 16 samples.

Results

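Nanog, the gene of a homeodomain transcription factor of pluripotent mouse cells, was followed by RNA-seq through the induction and blockade of ERK signalling. It was chosen by name and is 1 of the 52636 gene IDs in the count table. The cells were of the line CRAFR26 and of the type labelled RSC, and clones 4 and 8 each gave 2 libraries to each of 4 groups. Every group, including the uninduced one, had spent 48 h with 250 nM of the FGF receptor inhibitor PD173074 in place of the 1 µM MEK inhibitor PD0325901 of the routine medium, which was N2B27 with 2 µM IWP2 and 1000 U/ml LIF. The group 0h was not induced. In 2h and 4h, 250 nM 4-hydroxytamoxifen had switched on a c-RAF kinase construct for 2 h or 4 h. The group rev had 4 h of tamoxifen and then 2 h of a MEK inhibitor, whose dose was not stated. A group induced for 6 h without MEK inhibitor was not analysed here, so rev differs from 4h in both the inhibitor and the further 2 h. The libraries were made from total RNA depleted of ribosomal RNA.

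NANOG holds embryonic stem cells in self-renewal and acts with OCT4, encoded by Pou5f1, and SOX2, and it opposes the turn towards primitive endoderm. The signal passes from RAF through MEK to ERK, and FGF is its usual source in these cells. ERK signalling is known to lower Nanog in mouse pluripotent cells, while LIF acting through STAT3 and the KLF factors is known to sustain it. NANOG, OCT4 and SOX2 occupy the Nanog promoter, where a paired OCT4 and SOX2 element lies just upstream of the start.

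In the GENCODE annotation on GRCm38, Nanog (ENSMUSG00000012396) spans chromosome 6, 122707489 to 122714633, on the plus strand, with 2242 bases of exon in 3 transcripts. The longest coding form has 4 exons and 915 coding bases, and the others have 5 exons and 840 coding bases. No other annotated gene overlaps it. Its processed copies Nanog-ps1 on chromosome X and Nanog-ps2 on chromosome 12 had at most 1 count in any library, so few reads were assigned to them. With these copies, 117 other genes had a transcript that aligned to Nanog-201 over more than 200 bases. Expressed genes were among them, such as Eprs (214 bases at 94.4% identity, up to 3346 counts in a library). Whether reads were shared with such transcripts was not tested. The 250 bases before the start are printed because they hold the paired element, shown in capitals, from the RefSeq table on GRCm38.p6, chr6:122707239-122707488, plus strand.
Nanog promoter: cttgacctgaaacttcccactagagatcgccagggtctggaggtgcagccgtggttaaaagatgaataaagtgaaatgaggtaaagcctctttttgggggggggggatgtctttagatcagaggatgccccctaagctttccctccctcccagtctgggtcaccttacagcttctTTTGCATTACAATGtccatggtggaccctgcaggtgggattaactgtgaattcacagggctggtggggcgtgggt
The capitals lie 75 to 62 bases before the start at 122707489, which is that of the transcript Nanog-203. They lie further from the starts of Nanog-201, the longest coding form, at 122707568 and of Nanog-202 at 122707565. The search was for TTTGCAT, any 1 base and then ACAATG on both strands. This was found in 2 of 32851 windows of this length (0.00609%), both of them windows of Nanog. The string was set to match the Nanog element, so its presence there is no result, and looser forms of the element were not searched. The parts alone were more common, with TTTGCAT, bound by OCT4, in 4.12% of windows and ACAATG, bound by SOX2, in 10.7%. Of further strings searched on both strands, CCGGAAGT of the ETS factors was in 2.88% of windows, TTCNNNGAA of the STAT factors in 7.02% and ATCAAAG of the TCF factors in 3.21%, and these letters were not in the Nanog windows.

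Library totals ran from 4.31 to 10.4 M counts. Features that each took over 1% of counts, 8 in all, held 46.7% to 78.9% of a library, which left 1.30 to 5.46 M counts for all other genes. Nanog itself had 665 to 8614 counts, a counting error of 3.88% at the lowest and 1.08% at the highest. Levels are given in CPM, which scales counts to a common library size, here by TMM over the 12742 genes tested. The labels do not say that the libraries numbered 1 and 2 came from separate cultures, so the tests measure the spread between these libraries, which may be technical. In bulk RNA, fewer cells with Nanog and less Nanog RNA per cell cannot be told apart.

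The labelled cell type carried the RNAs of a pluripotent cell in every library. The summed level of 6 general pluripotency genes (Pou5f1, Sox2, Sall4, Lin28a, Utf1 and Dppa5a) was 868.3 to 1016 CPM. Genes of primitive endoderm, the lineage that NANOG opposes, were low at a sum of 3.06 to 7.18 CPM. Gata6 had at most 10 counts and Foxa2 at most 2, while Gata4 had 11 to 41 and Pdgfra 2 to 24. Genes of mesoderm summed to 1.97 to 8.64 CPM, where Eomes had 10 to 61 counts. Those of fibroblasts summed to 0.613 to 3.47 CPM, with Col1a2 at 0 in 9 libraries and Col1a1 at 1 to 18 counts. Those of trophoblast summed to 26.1 to 65.5 CPM, with Tfap2c at 133 to 473 counts, Cdx2 at most 7 and Elf5 at most 4. The formative gene Fgf5 had at most 8 counts, while Zic2 of the same list had 77 to 822.

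Before induction Nanog was abundant in both clones and higher in clone 8. Its level at 0h was 344.4 and 344.5 CPM in the libraries of clone 4 and 541.3 and 528.4 CPM in those of clone 8. The clones did not overlap, and the log2 difference between them was 0.63 (SE 0.127, edgeR adjusted p 0.000601), or 1.55-fold. In this comparison of the uninduced clones 11.7% of all tested genes were called, that is, had an adjusted p under 0.05. Per kilobase of exon, Nanog stood at 153.6 CPM in clone 4 and 238.6 CPM in clone 8, ranks 46 and 37 from the top among 12732 genes. On the same scale Pou5f1 stood at 65.4 and 65.8 CPM and Sox2 at 103.9 and 111.8 CPM, so that Nanog was the highest of the 3 core factors. Scaled by library totals, the clone difference was 0.58 and was not called (edgeR adjusted p 0.307).

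After 2 h of induction Nanog showed no called change. Its level was 317.0 and 356.5 CPM in clone 4 and 545.6 and 603.9 CPM in clone 8. The clone 4 libraries lay on both sides of the 0h values and both clone 8 libraries lay above them. The log2 change from 0h was 0.03 (SE 0.16, edgeR adjusted p 0.921), in a comparison that called 17% of all genes. Within clone 4 the value was -0.03 (edgeR adjusted p 0.884) and within clone 8 it was 0.10 (edgeR adjusted p 0.622).

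After 4 h Nanog fell, and the fall was deep in clone 4. The clone 4 libraries held 111.3 and 168.9 CPM, and those of clone 8 held 404.2 and 467.9 CPM. In each clone both 4h libraries lay below both 0h libraries, and across clones the 4h libraries of clone 8 were still above the 0h libraries of clone 4. Over both clones the log2 change from 0h was -0.75 (SE 0.163, edgeR adjusted p 0.0049), among the 12.9% of genes called and the 5.56% called lower, and it was the 546th lowest of 12742. From 2h to 4h the change was -0.78 (SE 0.163, edgeR adjusted p 0.00493), where 12.1% of genes were called. These calls rest on the clone term of the model: without it the change from 0h was -0.61 (edgeR adjusted p 0.388), and an exact two-sided permutation test of 4 libraries against 4, which ignores the clones, gave p = 0.286.

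**Figure D1:**
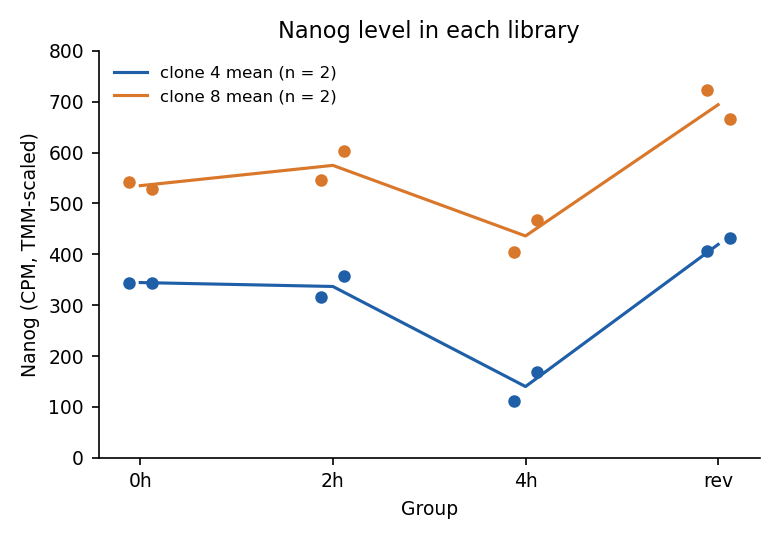
Nanog level in each library in CPM, with the libraries of clone 4 and clone 8 drawn apart for each group and the mean of each pair marked. The 4h libraries of clone 4 at 111.3 and 168.9 CPM are the lowest of the 16, and the rev libraries of clone 8 at 722.1 and 665.7 CPM are the highest.

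Within clone 4 the log2 change from 0h was -1.32 (SE 0.134, edgeR adjusted p 2.27e-09), which left 40.2% of the uninduced level. In that comparison 20.5% of genes were called. Within clone 8 the difference was -0.30 (SE 0.125, edgeR adjusted p 0.181, unadjusted 0.0245), or 81.5% of the uninduced level, in a comparison that called 5.21% of genes. This value was not past the threshold in any of 23 alternative settings, where the edgeR or DESeq2 adjusted p ran from 0.0957 to 0.938. From 2h to 4h the clone 8 change was -0.40 (edgeR adjusted p 0.0423), and the call was lost in 9 of 23 alternatives: with library totals, without either 0h, 2h or 4h library of clone 8 and without either rev library of clone 4, where the change was -0.67 with library totals and ran from -0.30 to -0.51 on leaving out a library. That change in clone 4 was -1.28 (edgeR adjusted p 4.8e-09).

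The change from 0h to 4h differed between the clones by 1.02 log2 units (clone 8 minus clone 4, SE 0.183, edgeR adjusted p 0.000308). In this test of the difference 5.72% of genes were called. All 22 alternative settings kept the call. From 2h to 4h the difference was 0.88 (edgeR adjusted p 0.000831), where 14.8% of genes were called. At 2 h the clones' changes differed by 0.14 (SE 0.178, edgeR adjusted p 0.701), with 7.94% of genes called. By 4 h the level itself was 3.15-fold higher in clone 8 (log2 difference 1.65, edgeR adjusted p 1.37e-11, with 24.2% of genes called). Per kilobase of exon, Nanog then ranked 204 in clone 4, at 62.5 CPM, and 45 in clone 8, at 194.5 CPM.

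After the MEK inhibitor Nanog was high again in both clones. The rev libraries held 406.8 and 432.0 CPM in clone 4 and 722.1 and 665.7 CPM in clone 8. In each clone both lay above every other library of that clone, the 0h and 2h libraries included. Against 4h, Nanog had a log2 rise of 1.08 (SE 0.164, edgeR adjusted p 0.000308), the 208th highest of 12742, and 9.61% of genes were called. The rise was 3.03-fold in clone 4 (log2 1.60, SE 0.133, edgeR adjusted p 2.82e-11, with 26.4% of genes called). In clone 8 it was 1.59-fold (log2 0.67, edgeR adjusted p 0.000647, with 5.75% of genes called). The clones' rises differed by -0.93 (clone 8 minus clone 4, SE 0.182, edgeR adjusted p 0.000601), in a test that called 13.2% of genes. With library totals this difference was -1.60.

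The rise in clone 8 depends on how the libraries are scaled. Scaled by library totals instead of TMM it was 0.10 (edgeR adjusted p 0.759). The library 1 of clone 8 at rev had 78.9% of its counts in the 8 features above 1% and a TMM factor of 0.537. Without that library the TMM-scaled rise was 0.62 (edgeR adjusted p 0.00753). A ratio within each library needs no scaling but moves with its denominator, and Pou5f1 was itself called lower from 4h to rev in clone 4. Nanog counts per Pou5f1 count in clone 8 were 2.35 and 3.29 at 4h and 5.48 and 4.16 at rev, and in clone 4 they were 0.664 and 0.962 at 4h and 2.88 and 3.57 at rev. In both clones the rev ratios lay above the 4h ratios, and the 4h ratios lay below those of 0h, which were 2.29 and 2.39 in clone 4 and 3.69 and 3.54 in clone 8.

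**Figure D2:**
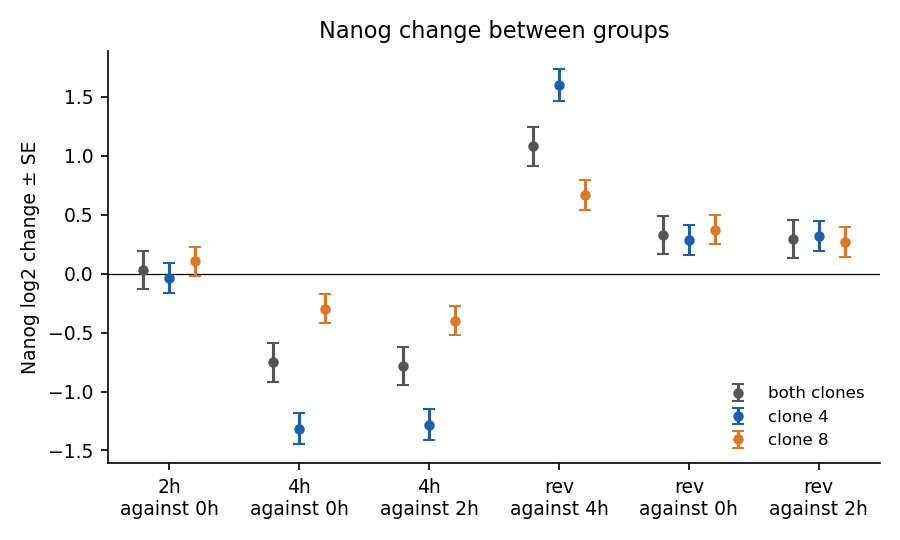
Nanog log2 changes between groups from edgeR, over both clones and within each clone, with bars of 1 SE. The change from 0h to 4h is -1.32 in clone 4 and -0.30 in clone 8, where it was not called. The rise from 4h to rev is 1.60 in clone 4 and 0.67 in clone 8.

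Although each rev library exceeded the 0h libraries of its clone, the difference of rev from 0h was not called. It was 0.33 (SE 0.16, edgeR adjusted p 0.2, unadjusted 0.0545), where 10.5% of genes were called. It was 0.28 within clone 4 (edgeR adjusted p 0.116) and 0.37 within clone 8 (edgeR adjusted p 0.0578). The clone 8 value was called in 7 of 23 alternative settings, 4 of which leave out 1 of the 2h or 4h libraries of clone 4, and with library totals it turned to -0.086, while the value over both clones was then 0.080. Against 2h the difference was 0.30 (SE 0.16, edgeR adjusted p 0.396), where 1.78% of genes were called. With only the groups compared in the model, both differences passed the threshold (edgeR adjusted p 0.0118 against 0h and 0.0248 against 2h). Clone 8 stayed 1.65-fold above clone 4 at rev (log2 0.73, edgeR adjusted p 4.74e-05, with 24.5% of genes called) and 1.71-fold at 2h (log2 0.77, edgeR adjusted p 1.27e-05, with 30.4% called). With library totals the difference at rev was 0.30 (edgeR adjusted p 0.416).

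Ordered by mean level, the combinations of group and clone ran from 4h in clone 4 (140.1 ± 40.7 CPM, SD, n = 2) through 2h (336.8 ± 27.9), 0h (344.5 ± 0.0765) and rev (419.4 ± 17.8) in that clone. Clone 8 followed with 4h (436.0 ± 45.0), 0h (534.9 ± 9.15), 2h (574.8 ± 41.2) and rev (693.9 ± 39.9). Neighbours in this order overlapped in 2 places, 2h with 0h in clone 4 and rev of clone 4 with 4h of clone 8. Averaged over the 4 libraries, Nanog stood at 439.7 ± 110 CPM at 0h, 455.8 ± 140 at 2h, 288.1 ± 174 at 4h and 556.7 ± 160 at rev (SD, n = 4), and most of this spread lay between the clones.

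The libraries also split in a way that the clones do not give. In a principal component analysis of the 500 genes that varied most, the third component held 8.57% of the variance, and on it all 0h and 4h libraries scored positive and all 2h and rev libraries negative. Nanog was not among these 500 genes. Its fall from 0h to 4h does not cross this split, while its changes from 2h to 4h and from 4h to rev do. No batch is labelled, and since whole groups lie on either side, the split and the groups cannot be told apart for the changes that cross it.

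The state of the signal itself was read from 16 ERK feedback and immediate-early genes. At 2h against 0h 14 of the 16 rose, where 9.49% of all genes rose, and their median log2 change was 1.92 against 0.00 over all genes tested. At 4h 14 of 16 were higher than at 0h, with a median of 2.49, where 7.35% of all genes were higher. At rev 13 of 16 were lower than at 4h, with a median of -2.06, where 5.1% of all genes were lower. For example Dusp6, the gene of an ERK phosphatase, held 1.20 and 3.03 CPM at 0h in clone 4 and 33.5 and 35.4 CPM at 2h. It went on to 80.0 and 73.9 CPM at 4h in that clone and back to 1.47 and 1.07 CPM at rev. In clone 8 Dusp6 was 3.84 and 3.59 CPM at 0h, 31.1 and 28.0 CPM at 2h, 22.8 and 19.3 CPM at 4h and 2.42 and 1.41 CPM at rev. Thus at 2h, when these genes were already raised in both clones, Nanog was not changed beyond the spread between libraries.

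The clones also differed in this list. Their changes from 0h to 2h, which were not called different for Nanog, differed in 7 of the 16, with 6 lower in clone 8 and Myc higher, where 7.94% of all genes differed. From 0h to 4h the median change of the 16 genes was 3.89 for clone 4 and 1.32 for clone 8. A difference between the clones was called for 9 of 16, all with the smaller change in clone 8, where 3.69% of all genes differed in that direction. From 2h to 4h, 11 of 16 went on rising in clone 4 and 3 fell, where 29.2% of genes were called, 13.3% higher and 15.9% lower. In clone 8 over the same interval 1 rose and 5 fell, where 7.95% of genes were called, 3.81% higher and 4.14% lower. The mean log2 CPM of the list at 4h was 5.28 in both libraries of clone 4 and 3.90 to 3.94 in clone 8. The part of this difference in the Nanog result was not tested.

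**Figure D3:**
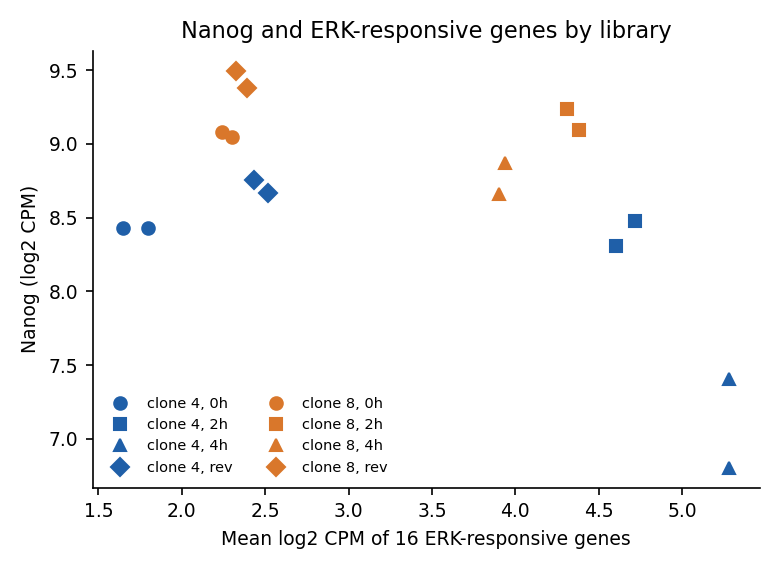
Nanog log2 CPM against the mean log2 CPM of the 16 ERK list genes, 1 point per library, marked by group and clone. The 4h libraries of clone 4 have the highest list mean, 5.28, and the lowest Nanog, while the 2h libraries at 4.31 to 4.72 have Nanog levels near those of 0h.

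Factors known to activate or occupy Nanog were read next, as a list of 12 genes chosen with earlier results known. At 4h against 0h, 1 of the 12 rose and 3 fell, where 7.35% of all genes rose and 5.56% fell. Their median change was -0.03 against -0.01 over all genes. The genes that fell were Prdm14, the gene of a PR-domain repressor of the FGF receptor pathway (log2 -1.12, edgeR adjusted p 0.00198), Klf4 (-0.75, edgeR adjusted p 0.0103) and Tfcp2l1 (-0.50, edgeR adjusted p 0.046). Both KLF4 and TFCP2L1 are transcription factors of naive pluripotency. Klf5 rose by 1.06 (edgeR adjusted p 4.88e-05). Pou5f1 was at 0.16 (edgeR adjusted p 0.306), Sox2 at -0.03 (edgeR adjusted p 0.817) and Esrrb at 0.01 (edgeR adjusted p 0.984), none of them called in this comparison. Within clone 4, Pou5f1 rose from 2h to 4h by 0.43 (edgeR adjusted p 0.00387) and fell from 4h to rev by 0.39 (edgeR adjusted p 0.0087), opposite in direction to Nanog, and Sox2 was at -0.14 from 2h to 4h (edgeR adjusted p 0.286). The call of Tfcp2l1 was lost on scaling by library totals, and those of Klf4, Tfcp2l1 and Prdm14 without the clone term.

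Klf4 had a course over the libraries close to that of Nanog. At 0h it held 70.3 and 55.3 CPM in clone 4 and 110.1 and 103.6 CPM in clone 8. At 4h it held 18.0 and 27.2 CPM in clone 4 and 92.5 and 90.2 CPM in clone 8. At rev it held 58.3 and 64.4 CPM in clone 4 and 157.7 and 149.2 CPM in clone 8. The groups of clone 4 separated as for Nanog at 4h, and clone 8 was above clone 4 in every group. Its fall to 4h was -1.53 in clone 4 (edgeR adjusted p 1.06e-09) and -0.23 in clone 8 (edgeR adjusted p 0.287). Prdm14 was already lower at 2h in clone 4, with 27.0 and 20.6 CPM at 0h and 9.60 and 8.85 CPM at 2h (log2 -1.35, edgeR adjusted p 5.06e-07). In clone 8 it held 31.1 and 36.4 CPM at 0h and 28.0 and 30.1 CPM at 2h (log2 -0.21, edgeR adjusted p 0.273). The difference between the clones was 1.14 (edgeR adjusted p 0.000671), and over both clones the change was -0.67 (edgeR adjusted p 0.0282).

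Within clone 4 at 4h, 5 of the 12 fell (Klf2, Klf4, Tbx3, Tfcp2l1 and Prdm14) and Klf5 rose, where 9.43% of all genes fell and 11% rose. Within clone 8 Prdm14 fell and Klf5 and Stat3 rose, where 2.28% of all genes fell and 2.94% rose. The medians of the list were -0.30 and 0.09. The change differed between the clones in 5 of the 12 (Esrrb, Klf4, Tfcp2l1, Prdm14 and Stat3), each with the higher value in clone 8, where 2.03% of all genes differed in that direction. From 4h to rev over both clones, 5 rose (Klf2, Klf4, Tbx3, Tfcp2l1 and Prdm14) and Klf5 fell by 1.32, where 4.5% of all genes rose and 5.1% fell. Klf2 rose by 0.75 (edgeR adjusted p 0.00339) and Tfcp2l1 by 0.69 (edgeR adjusted p 0.00967). With library totals the rises of Klf2, Tbx3, Tfcp2l1 and Prdm14 were 0.53, 0.30, 0.51 and 0.78 and were not called. Within clone 4, 8 of the 12 rose from 4h to rev and 2 fell (Pou5f1 and Klf5), where 26.4% of all genes were called. Within clone 8 only Klf2 and Klf4 rose and Klf5 fell, where 5.75% of all genes were called. This change was called lower in clone 8 than in clone 4 for 6 of the 12, where 13.2% of all genes differed in either direction.

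**Figure D4:**
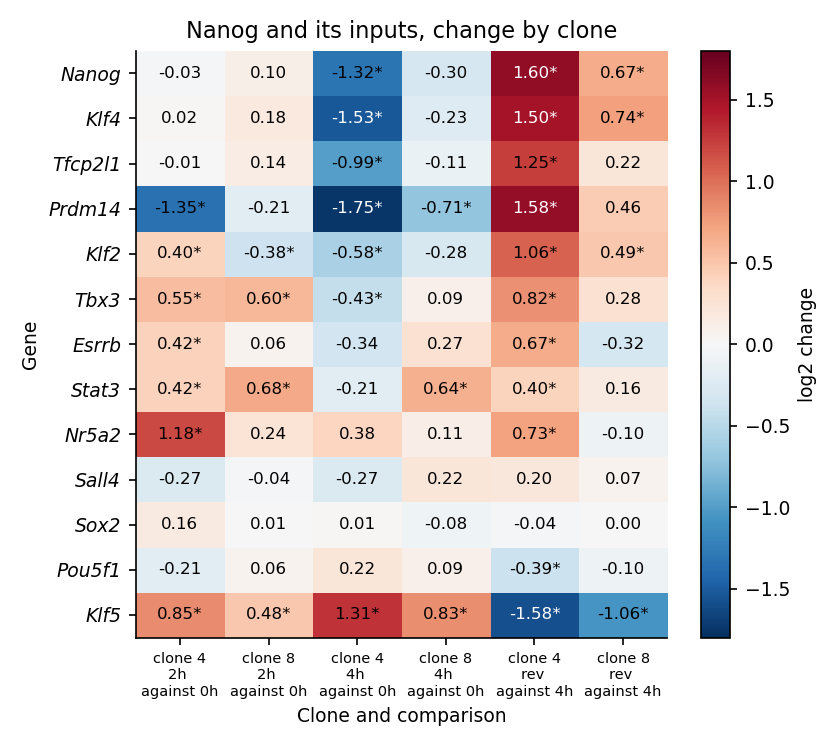
Log2 changes of Nanog and of the 12 listed activators within each clone, as a colour scale with an asterisk for an adjusted p under 0.05. In clone 4 the fall at 4h and the rise at rev are seen in Nanog, Klf4, Tfcp2l1, Prdm14, Klf2 and Tbx3, and Klf5 moves the opposite way in both clones.

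Of 4 genes known to lower Nanog, 2 rose at 4h, where 7.35% of all genes rose. Zfp281, a zinc finger factor that recruits the NuRD complex to Nanog, held 54.1, 60.5, 56.9 and 59.6 CPM in the libraries of 0h and 101.3, 93.7, 81.7 and 86.8 CPM in those of 4h. These did not overlap, and the log2 change was 0.65 (SE 0.0758, edgeR adjusted p 1.58e-05). At 2h, when Nanog showed no called change, it was 0.43 higher than at 0h (edgeR adjusted p 0.000886), and at rev it fell by 0.67 from 4h (edgeR adjusted p 1.59e-05) to 52.6 to 61.5 CPM. Nr6a1, the gene of the germ cell nuclear factor that represses pluripotency genes, rose by 0.96 at 4h (edgeR adjusted p 0.000188), by 1.36 in clone 4 and 0.51 in clone 8. From 4h to rev Nr6a1 fell by 0.54 in clone 4 (edgeR adjusted p 0.000107) and was at 0.04 in clone 8 (edgeR adjusted p 0.895), and this difference between the clones was 0.58 (edgeR adjusted p 0.00886). Over both clones the value was -0.28 (edgeR adjusted p 0.218). Tcf7l1, a transcriptional repressor of the WNT pathway, was at 0.08 (edgeR adjusted p 0.726) and Trp53 at 0.23 (edgeR adjusted p 0.0954) at 4h. With library totals the rise of Zfp281 at 4h was 0.61 and was not called.

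A list of 13 genes of proteins that bind NANOG, Zfp281 and Sall4 among them, was read the same way. At 4h 2 of the 13 rose and 1 fell, with a median of 0.14, where 7.35% of all genes rose and 5.56% fell, so these counts were near the background. With library totals Nr0b1, Zfp281 and Mta1 were not called at 4h. Nr0b1, the gene of the nuclear receptor DAX1, rose by 0.74 (edgeR adjusted p 0.00103) and fell by 0.44 from 4h to rev (edgeR adjusted p 0.0374). Mta1, of the NuRD complex, fell by 0.31 at 4h (edgeR adjusted p 0.0432). Tet1, a DNA demethylase gene, was at 0.14 (edgeR adjusted p 0.435).

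The genes whose levels followed Nanog most closely were ranked by Pearson's r of log2 CPM over the 16 libraries among 4364 genes with a mean of at least 20 CPM. Klf4 was first (r = 0.977), then Cpt1a (0.963), which encodes the enzyme that brings fatty acids into mitochondria, Tfcp2l1 (0.962), Jam2 (0.962), an adhesion molecule gene, Pdp2 (0.951), Mapt (0.946), Smtnl2 (0.945) and Zmat3 (0.944). At the other end were Slc2a1 (-0.964), a glucose transporter gene, Cit (-0.956), Rian (-0.955), a long noncoding RNA of an imprinted cluster, and Kctd3 (-0.928). These correlations describe libraries that share clone, group and scaling, and they carry no test. With the clone means removed 3 of the 8 stayed among the closest 8 (Klf4, Tfcp2l1 and Jam2), and Fgf4, the gene of the ligand upstream of ERK, came first (r = 0.967). Fgf4, singled out after its values were seen, had log2 values of -1.13 from 0h to 4h and 1.34 from 4h to rev, given as a description with no test.

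Cpt1a held 27.2 and 19.4 CPM at 0h in clone 4 and 8.13 and 11.9 CPM at 4h, and 49.2 and 47.7 CPM then 35.6 and 33.1 CPM in clone 8. Slc2a1 ran the other way, with 83.1 and 86.2 CPM at 0h and 127.2 and 116.3 CPM at 4h in clone 4. In clone 8 it held 62.4 and 71.8 CPM at 0h and 73.6 and 70.3 CPM at 4h. The 4h libraries of clone 4 were the extreme ones for both genes. Both were chosen by their correlation with Nanog over these same libraries, so this likeness is no separate result.

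Genes beside Nanog on chromosome 6 were compared with it. Within 250 kb, 23 annotated genes were in the table and 9 were tested. At 4h against 0h 2 of the 9 fell, Slc2a3, a glucose transporter gene 13176 bases away (-0.42, edgeR adjusted p 0.0105), and Rimklb (-0.39, edgeR adjusted p 0.0242), and neither was called with library totals. Over all genes 5.56% fell. From 4h to rev the changes of the 9 over both clones ran from -0.39 to 0.41 and were not called, with Slc2a3 at 0.24 (edgeR adjusted p 0.149) and Rimklb at 0.20 (edgeR adjusted p 0.263). Dppa3, an oocyte and naive-state gene, had a change that differed between the clones at 4h by 0.74 (edgeR adjusted p 0.042) and at rev against 4h by -1.78 (edgeR adjusted p 1.39e-06). It rose in clone 4 from 4h to rev by 1.25 (edgeR adjusted p 1.37e-07), with 19.5 and 27.7 CPM at 4h and 52.0 and 56.5 CPM at rev, and fell in clone 8 by 0.53 (edgeR adjusted p 0.0492).

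**Figure D5:**
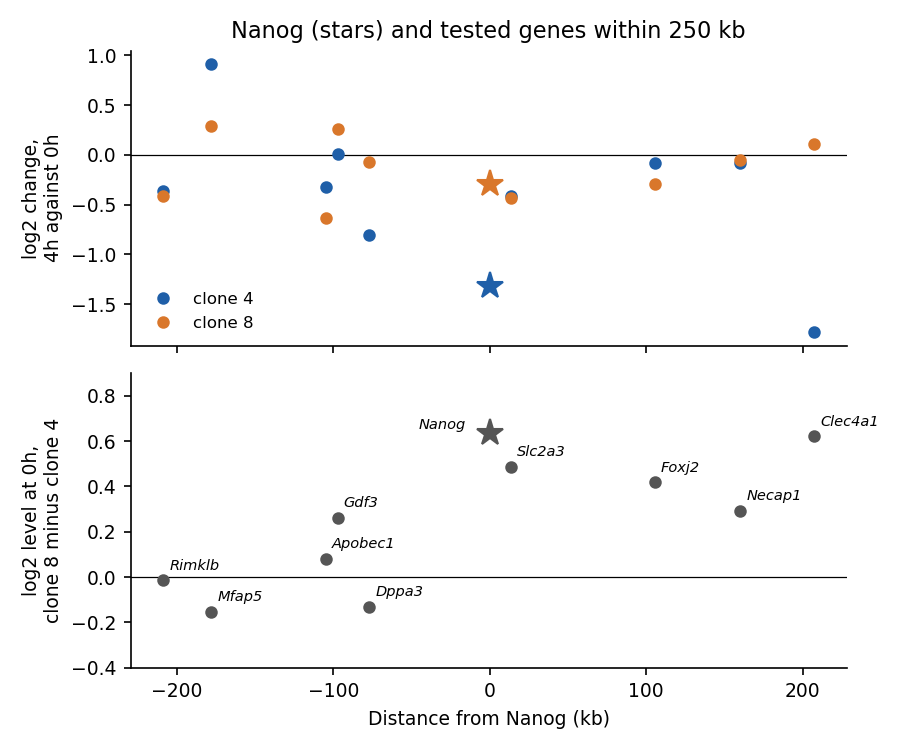
Log2 values of the 9 tested genes within 250 kb of Nanog and of Nanog itself, plotted by distance from Nanog in kb. The upper panel shows the change from 0h to 4h in each clone, the lower panel the difference between clones at 0h, and stars mark Nanog. The change of Nanog is -1.32 in clone 4 and -0.30 in clone 8, where it was not called. In the lower panel its clone difference of 0.63 and that of Slc2a3, 0.49, are the called ones.

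The uninduced level of Nanog differed between clones on a chromosome where many genes did. Over the 624 tested genes of chromosome 6 the median clone difference at 0h was 0.19 on the log2 scale, and 21.8% were called higher in clone 8 and 3.69% lower. Over the 12118 other genes the median was -0.01, and 6.27% were called higher and 4.70% lower. The chromosome's median was 0.21 at 2h, 0.18 at 4h and 0.19 at rev, so it was similar in every group, while the clone difference of Nanog went from 0.63 at 0h to 1.65 at 4h. Among the 9 tested neighbours, Slc2a3 was the 1 called at 0h (0.49, edgeR adjusted p 0.00423), where 11.7% of all genes were called. At 4h 5 of the 9 were called higher in clone 8 (Gdf3, Dppa3, Slc2a3, Necap1 and Clec4a1) and 0 lower, where 24.2% of all genes were called. At rev 3 were called higher and 1 lower, where 24.5% of all genes were called, and at 2h 1 higher and 1 lower, where 30.4% were called. The part of the chromosome-wide difference in the Nanog level was not tested.

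Markers of other states were read beside the low Nanog of the 4h libraries of clone 4, and not all of them changed with it. The sum of the neural genes Sox1 and Pax6 was 19.0 to 22.8 CPM in those 2 libraries and 4.20 to 8.56 CPM in the other 14, and both genes had counts in every library. Of the 2 genes, Pax6 was called higher in clone 4 from 0h to 4h and Sox1 was not. The sum of 8 formative and primed genes was 185.4 to 212.3 CPM in clone 4 at 4h and 102.7 to 109.3 CPM in clone 8 at 4h. In clone 4 this sum was 145.6 to 172.3 CPM at 0h and 188.3 to 197.2 CPM at 2h, which overlapped the range at 4h. Its members did not move alike within clone 4 from 2h to 4h: of 7 tested, Otx2, Pou3f1, Dnmt3a, Dnmt3b and Sox3 rose and Zic2 fell, where 13.3% of all genes rose and 15.9% fell. Zic2 held 101.1 and 113.6 CPM at 2h and 48.4 and 59.7 CPM at 4h. The sum of 9 naive genes, 8 of which are also in the list of activators, was 750.0 to 914.8 CPM in clone 4 at 4h. In that clone it was 974.9 to 1094 CPM at 0h and 1190 to 1504 CPM at 2h. In clone 8 this sum did not fall, with 1365 to 1375 CPM at 0h and 1418 to 1433 CPM at 4h. The 4 genes of the transient 2-cell-like state summed to 0.388 to 1.56 CPM in clone 4 and 4.02 to 20.6 CPM in clone 8. The part of these genes' cells or states in the Nanog result was not tested.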

How the data were processed

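RNA-seq of 16 libraries (4 groups, 2 clones, 2 libraries of each) was analysed. The deposited file is a single table of raw whole-number counts per gene. The tools bcl2fastq 2.19.1 and STAR 2.5.3a and the build mm10 were used, per the submitters' processing notes, which give them no role. The counting program, its annotation and its strand setting are not given in the sources used here. Symbols and coordinates were taken by gene ID from GENCODE M21 on GRCm38 (52489 IDs matched, 147 did not).

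The filterByExpr function (by group, with a minimum count of 10 and a minimum total of 15) kept 12742 genes, which were scaled by TMM. edgeR 4.0.16 in R 4.3.3 fitted its quasi-likelihood test over all 16 libraries, with group and clone for the comparisons between groups and with each combination of group and clone for those within and between clones. p-values were Benjamini-Hochberg adjusted over all tested genes and called under 0.05. SE was taken as the absolute log2 change over the root of the F statistic, and the prior count for log2 CPM was 2. Tested on simulated counts, the fit of 4h against 0h recovered 200 of 200 genes changed by 1 log2 unit with 10 false calls among 12256 genes, and that of the clone difference 195 of 200 changed by 1.5 with 9 false calls.

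Samples were grouped by their titles. Libraries of a clone and group had a chi-square of 4.42 to 74.3 per degree of freedom, beyond sampling noise, and were kept apart. Named genes were Nanog, the 8 most and 4 least correlated with it at a mean of at least 20 CPM, tested genes within 250 kb, and up to 4 called members of each list in each direction. The gene and lists were chosen with earlier results of these data known. Alternatives were RLE scaling, library totals, removal of features above 1%, no low-count filter, DESeq2 1.42.0, no clone term, a replicate block, single clones, only the groups compared, an exact permutation test and each library left out. Nanog counts per Pou5f1 count were added after the data were seen.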

Additional observations from a re-analysis of the deposited data

Results flagged for a closer look

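These changes differed between the clones by edgeR's test of the difference itself, given as clone 8 minus clone 4 on the log2 scale. The change of Nanog differed by 1.02 from 0h to 4h, by 0.88 from 2h to 4h and by -0.93 from 4h to rev. From 0h to 4h the clone 8 changes were higher for Klf4 (1.30), Prdm14 (1.05), Tfcp2l1 (0.87), Stat3 (0.85) and Esrrb (0.62). From 4h to rev the clone 8 changes were lower for Prdm14 (-1.13), Tfcp2l1 (-1.02), Esrrb (-0.99), Nr5a2 (-0.82), Klf4 (-0.76) and Klf2 (-0.57). From 0h to 2h the change of Prdm14 differed by 1.14, that of Nr5a2 by -0.94 and that of Klf2 by -0.78, while no difference was called for Nanog at that time. Each clone and group has 2 libraries.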

How the results depend on the processing

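Without the clone term the Nanog changes from 0h to 4h, 2h to 4h and 4h to rev were -0.61, -0.66 and 0.95 (edgeR adjusted p 0.388, 0.334 and 0.196). By the exact two-sided permutation test of log2 CPM, which leaves the clones out and cannot go below 0.0286, they were -0.81, -0.85 and 1.14 (p = 0.286, 0.2 and 0.114). Per Pou5f1 count, in an exact permutation test added after the data were seen, they were -0.96, -1.07 and 1.39 (p = 0.143, 0.114 and 0.0571). All 3 settings put the difference between clones into the spread.

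The difference of Nanog at rev from 0h passed the threshold without the filter on low counts (0.32) and, like that from 2h, with only the groups compared (0.33 and 0.30). With library totals rev against 2h turned to -0.034. The clone differences in change were then 0.60 from 2h to 4h (not called), -1.60 from 4h to rev, -0.28 from 0h to rev (turned) and -0.999 from 2h to rev (called, edgeR adjusted p 0.0339). The rise of clone 8 at rev against 4h was then 0.10, its changes at rev were -0.086 against 0h and -0.57 against 2h, and the clone differences in level were 0.58 at 0h and 0.30 at rev. They moved the median of all genes to 0.11 from 0h to 2h, -0.14 from 2h to 4h, -0.20 from 4h to rev, -0.24 from 0h to rev and -0.35 from 2h to rev. At 4h against 0h they called 508 genes, 64.6% of them higher (936 of 1645 with TMM), and from 4h to rev 530, 15.8% of them higher (574 of 1224 with TMM).

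On leaving out each library in turn, the change of Nanog at 4h against 0h ran from -0.92 to -0.54 and that at rev against 4h from 0.87 to 1.25, all called. The range was -0.032 to 0.084 for 2h against 0h, 0.27 to 0.38 for rev against 0h, called without the 4h library 1 of clone 4 (0.33, edgeR adjusted p 0.0486), and -0.13 to 0.035 for the clone difference from 2h to rev. Within clone 4 that from 0h to 2h was -0.12 to 0.049.

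The labels number the libraries of a clone 1 and 2 in every group. Deviations of like-numbered libraries correlated at -0.0106 on average over 12 pairs (-0.133 to 0.119, 1 over 0.1), so the numbers do not pair them. With the replicate block Nanog was at -0.76 at 4h against 0h and 1.09 at rev against 4h, and no call of Nanog changed. Among other named genes, 10 calls were lost under the block, 37 with library totals and 46 without the clone term. Named lists' counts moved by over 1.5 times in 3 cases under the block, 6 with DESeq2 (such as 5 of the NANOG partners at 4h against 0h) and 12 with library totals.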
